A study of Mus musculus with 28 samples.

Results

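The mitochondrial genome is represented in these data by 31 genes whose names begin with mt-, out of 13394 genes listed in either of the 2 expression tables. They were taken by name alone, with no use of their values. All 31 are in the in vitro table of 12721 genes, and 30 of them (all but mt-Th) are in the co-culture table of 12948 genes. They comprise 13 protein-coding genes and 2 rRNA genes, present in both tables, and 16 tRNA genes in vitro or 15 in co-culture. The GENCODE M21 annotation of the GRCm38 mouse genome has 37 genes on this chromosome (13 protein-coding, 2 rRNA and 22 tRNA genes). The tRNA genes mt-Tf, mt-Ty, mt-Ts1, mt-Tr, mt-Ts2 and mt-Tl2 were not analysed here.

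Mitochondrial DNA is a small circle, read on both strands from start sites in its non-coding region into long transcripts that carry many genes each. The tRNA genes lie between most of the others, and cutting the tRNAs out of the long transcript also frees the neighbouring mRNAs and rRNAs, after which most mRNAs and the rRNAs receive a short poly(A) tail. The encoded proteins are core subunits of respiratory complexes I, III and IV and of the ATP synthase (complex V), and the remaining subunits, the RNA polymerase and the ribosomal proteins come from nuclear genes.

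MC38, a mouse colon carcinoma cell line, was grown in DMEM with 10 percent FCS and antibiotics, and 19 of the 28 samples of the series are used here, while 9 samples labelled as OT1 T cells were not analysed here. In one experiment MC38 cells met OT1 T cells (CD8 T cells with a transgenic receptor for an ovalbumin peptide) for 6 hours. The OT1 cells had been given an antibody against the inhibitory receptor PD1 (3 libraries) or an isotype control antibody (3 libraries), and 3 further libraries are of MC38 alone. In the other experiment MC38 cells received TNF with IFNG, IFNG alone or TNF alone for 6 hours, or supernatant of a co-culture for a time the labels do not record, or were left untreated, with 2 libraries in each of these groups. The labels do not say that replicates came from separate cultures, so p-values measure the spread between these libraries, which may be technical. Libraries were made with a kit that reads mRNA 3′ ends from the poly(A) tail, and values are log2 CPM, the number of counts scaled to a common library total. The sources used here do not say how the MC38 cells were separated from the T cells.

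Several libraries stand apart from their labels. The third anti-PD1 library is placed by its description, although untreated stands in both its title and its treatment label. The second isotype library carries OT2 in place of OT1 in its description. Of 17 T cell markers, 13 are in the co-culture table. Their summed level was 38.2 to 46.4 CPM in the anti-PD1 libraries and 45.4 to 52.2 CPM in the isotype libraries. The libraries labelled MC38 alone had 3.71, 3.99 and 43.5 CPM, so the third of them held T cell RNA at the level of the co-cultures. Ptprc, the leukocyte marker CD45, was at 3.15 log2 CPM in that library and at -2.58 and -1.63 in the other 2. Irf1, an interferon-induced transcription factor, was at 7.99 there, near the 8.32 and 8.25 of the other 2 libraries of MC38 alone. That library also had the fewest distinct values below the median, 54 against up to 160 in the table, a rough sign of low depth. Counts of members called, and of genes called on the nuclear lists in co-culture, are therefore also given without it. In the in vitro table the second library with both cytokines had 51 distinct values below the median, against 98 to 169 in the other 9. Of 7 epithelial and colon markers, 5 are in the co-culture table, summing to at most 33.3 CPM in any library, and the keratin gene Krt8 was at 0.06, 0.46 and 0.03 log2 CPM in MC38 alone, so the colon origin of the line cannot be read from these markers. In these bulk samples, fewer cells of a type and less RNA per cell cannot be told apart.

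The kit reads the 3′ ends of mRNAs. Shown are the ends of 8 annotated protein-coding genes: 6 that fell with isotype and mt-Co1 and mt-Nd5, which passed in neither co-culture. mt-Atp6, which also fell with isotype and has no tRNA gene within 3 bases downstream, is not shown. Where the RNAs themselves end was not tested, so these bases need not be where the poly(A) tail starts. Each line gives the last 30 bases of the gene in GRCm38, taken from the GENCODE M21 transcripts and written 5′ to 3′, with the encoded stop codon in capitals. In mt-Co3, mt-Nd4 and mt-Cytb only the T of the stop is encoded, and the poly(A) tail completes it. The other 10 genes, as annotated, hold all 3 bases of their stop. In mt-Nd1 and mt-Nd2 the last 2 of these bases also belong to the tRNA gene that follows, mt-Ti and mt-Tw. Whether the mRNAs keep those bases was not tested.
mt-Nd1 (chrM:3678-3707, plus strand): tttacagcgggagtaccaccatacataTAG
mt-Nd2 (chrM:4922-4951, plus strand): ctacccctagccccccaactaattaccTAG
mt-Co1 (chrM:6843-6872, plus strand): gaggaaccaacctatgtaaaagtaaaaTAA
mt-Co2 (chrM:7667-7696, plus strand): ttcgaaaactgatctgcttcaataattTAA
mt-Co3 (chrM:9361-9390, plus strand): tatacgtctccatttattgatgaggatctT
mt-Nd4 (chrM:11515-11544, plus strand): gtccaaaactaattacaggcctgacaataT
mt-Nd5 (chrM:13536-13565, plus strand): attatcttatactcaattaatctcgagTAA
mt-Cytb (chrM:15259-15288, plus strand): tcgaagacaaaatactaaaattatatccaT

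The tRNA genes that the results turn on are shown whole, from the same transcripts, with the anticodon in capitals. The first 3 are the tRNA genes that passed the test in some comparison. The last 3 lie on the minus strand and were lower in the second TNF library than in the first.
mt-Ti (chrM:3706-3774, plus strand): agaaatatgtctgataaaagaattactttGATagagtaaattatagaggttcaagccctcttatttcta
mt-Tm (chrM:3845-3913, plus strand): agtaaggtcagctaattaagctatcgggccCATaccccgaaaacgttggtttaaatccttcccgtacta
mt-Tg (chrM:9391-9458, plus strand): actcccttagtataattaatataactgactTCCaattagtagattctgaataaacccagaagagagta
mt-Tq (chrM:3772-3842, minus strand): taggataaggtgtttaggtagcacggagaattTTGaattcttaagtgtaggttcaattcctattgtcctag
mt-Tn (chrM:5089-5159, minus strand): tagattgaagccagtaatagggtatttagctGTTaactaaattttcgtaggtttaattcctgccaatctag
mt-Te (chrM:14071-14139, minus strand): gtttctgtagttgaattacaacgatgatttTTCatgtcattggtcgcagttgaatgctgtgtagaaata

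In co-culture with OT1 cells, several mitochondrial mRNAs and 1 or both rRNAs were lower than in MC38 alone, unevenly along the genome. The co-culture libraries also hold T cell RNA, whose part was not tested. With anti-PD1, 7 of 30 members were lower than in MC38 alone (adjusted p under 0.05) and none was higher, where 7.71 percent of all genes tested were lower. With isotype, 11 of 30 were lower and none higher, where 6.22 percent of all genes were lower. The median log2 fold change of the 13 mRNAs was -0.84 with anti-PD1 and -0.93 with isotype, that of the 2 rRNAs -0.52 with anti-PD1 and -0.70 with isotype, and that of the 15 tRNAs -0.27 with anti-PD1 and -0.10 with isotype. The median over all genes was -0.06 in both comparisons. The 2 comparisons share the libraries of MC38 alone, so their likeness is partly built in. Every library of the anti-PD1 co-culture was below every library of MC38 alone for 9 of 30 members, where 18.2 percent of all genes did so. Every isotype library was below MC38 alone for 11 of 30, where 17.8 percent of all genes did so. Without the third library of MC38 alone the counts were 8 lower with anti-PD1 and 10 with isotype. Of all genes in that fit, 9.93 percent were lower with anti-PD1 and 8.19 percent with isotype. The anti-PD1 count was 3 without the second anti-PD1 library and 3 without the third, whose labels conflict. The isotype count was 7 without the third isotype library. For these fits without a co-culture library, the shares of all genes are not set beside the counts.

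**Figure D1:**
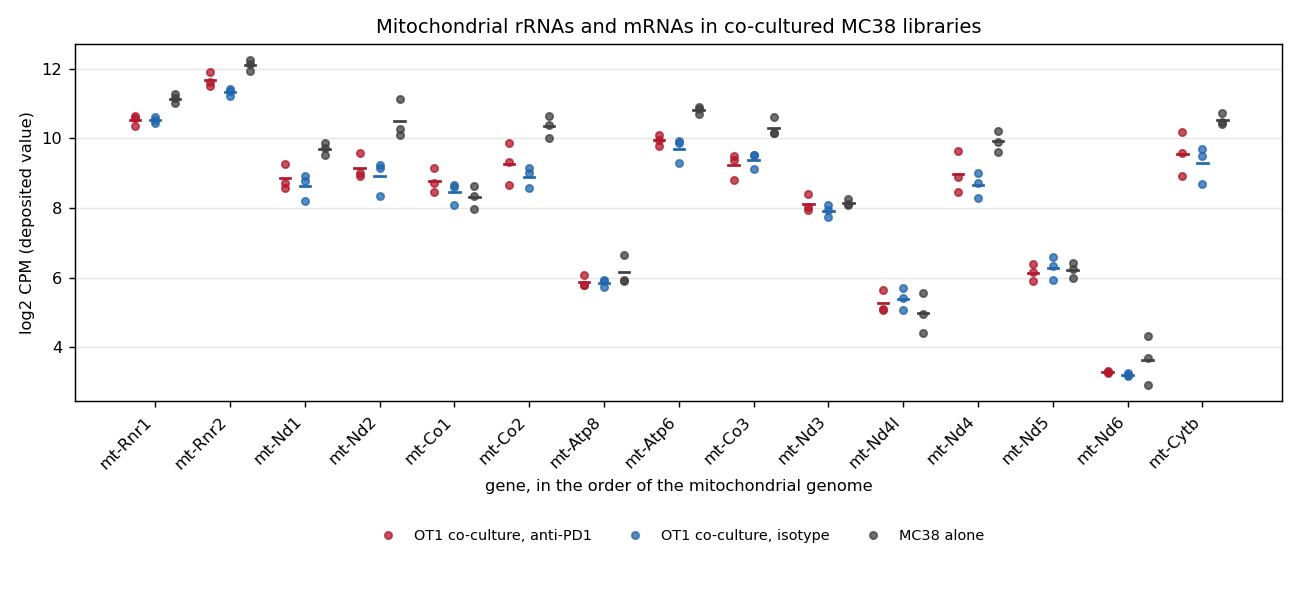
Deposited log2 CPM of the 2 mitochondrial rRNAs and 13 mRNAs in genome order, with 1 point for each of 3 libraries per group (anti-PD1 co-culture, isotype co-culture, MC38 alone) and a bar at the group mean. The co-cultures lie below MC38 alone for mt-Nd1, mt-Nd2, mt-Co2, mt-Atp6 and mt-Co3, and overlap it for mt-Co1, mt-Nd4l and mt-Nd5.

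Complex I, the NADH dehydrogenase at the entry of the respiratory chain, has 7 mitochondrially encoded subunits, and these split. mt-Nd2, a membrane subunit, had 9.57, 8.91 and 9.01 log2 CPM with anti-PD1 and 9.24, 8.36 and 9.16 with isotype, against 10.28, 10.09 and 11.14 in MC38 alone. The groups did not overlap, and the third library of MC38 alone was the highest of all. Its log2 fold change was -1.34 with anti-PD1 (SE 0.31, adjusted p = 0.0167) and -1.59 with isotype (SE 0.31, adjusted p = 0.00744), which is 2.53-fold lower with anti-PD1 and 3.00-fold lower with isotype. Without the third library of MC38 alone the log2 fold change was -1.02 with anti-PD1 and -1.27 with isotype, and both passed. The anti-PD1 call was lost without the second or the third anti-PD1 library (adjusted p = 0.0671 and 0.0642).

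mt-Nd1, a membrane subunit next to the quinone site, stood at 9.27, 8.73 and 8.58 with anti-PD1 and 8.92, 8.20 and 8.79 with isotype, against 9.72, 9.53 and 9.86 in MC38 alone. It fell by 0.84 on the log2 scale with anti-PD1 (adjusted p = 0.0261) and by 1.07 with isotype (adjusted p = 0.00905). The call with anti-PD1 was lost without the first or the third library of MC38 alone (adjusted p = 0.0597 and 0.0529) and without the second or the third anti-PD1 library (adjusted p = 0.0906 and 0.102). mt-Nd4, a proton-pumping subunit, had 9.63, 8.88 and 8.47 with anti-PD1 and 9.02, 8.29 and 8.72 with isotype, against 9.62, 9.91 and 10.21 in MC38 alone. Its first anti-PD1 library reached the lowest library of MC38 alone. It fell with isotype (log2 fold change -1.24, SE 0.29, adjusted p = 0.0172), and with anti-PD1 it had a log2 fold change of -0.92 that missed the threshold (adjusted p = 0.0531). The isotype call was lost without the second or the third isotype library (adjusted p = 0.0639 and 0.0531).

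The other complex I members did not pass. mt-Nd5, another pumping subunit, had 6.15, 5.89 and 6.39 log2 CPM with anti-PD1 and 6.58, 5.92 and 6.34 with isotype, against 6.24, 5.99 and 6.42 in MC38 alone. These groups lay on top of each other, and the interval of the log2 fold change ran from -0.51 to 0.36 with anti-PD1 and from -0.37 to 0.49 with isotype. mt-Nd3 had a log2 fold change of -0.03 with anti-PD1 and -0.23 with isotype, mt-Nd4l of 0.31 with anti-PD1 and 0.42 with isotype, and mt-Nd6 of -0.36 with anti-PD1 and -0.44 with isotype. The first 2 are small membrane subunits. mt-Nd6 is the single mRNA on the minus strand. Its last bases overlap the end of mt-Nd5, and since the sources used here do not give the strand setting of the counting, their reads cannot be told apart. mt-Nd4l and mt-Nd4 overlap by 7 bases and share 1 transcript.

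mt-Cytb, the only mitochondrially encoded subunit of complex III, had 10.17, 9.58 and 8.92 log2 CPM with anti-PD1 and 9.70, 8.69 and 9.49 with isotype, against 10.41, 10.49 and 10.73 in MC38 alone. Neither co-culture overlapped MC38 alone, but the anti-PD1 libraries spanned more than 1 log2 unit. It fell with isotype (log2 fold change -1.25, SE 0.32, adjusted p = 0.0261). With anti-PD1 the log2 fold change was -0.98 (adjusted p = 0.0616). The isotype call was lost without the second or the third library of MC38 alone (adjusted p = 0.0563 and 0.0545) and without the second or the third isotype library (adjusted p = 0.0829 and 0.0574).

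Complex IV, cytochrome c oxidase, has a catalytic core of 3 mitochondrially encoded subunits, and only mt-Co1 among them was not lower. mt-Co2, the subunit that receives electrons from cytochrome c, had 9.86, 9.33 and 8.65 log2 CPM with anti-PD1 and 9.00, 8.57 and 9.14 with isotype, against 10.64, 10.02 and 10.39 in MC38 alone. It fell by 1.07 on the log2 scale with anti-PD1 (adjusted p = 0.0285) and by 1.44 with isotype (adjusted p = 0.00734). The anti-PD1 call was lost without the first library of MC38 alone (adjusted p = 0.0812) and without the second or the third anti-PD1 library (adjusted p = 0.075 and 0.0862). mt-Co3, a core membrane subunit, had 9.51, 9.37 and 8.81 with anti-PD1 and 9.52, 9.13 and 9.52 with isotype, against 10.61, 10.17 and 10.16 in MC38 alone. Its log2 fold change was -1.09 with anti-PD1 (adjusted p = 0.00508) and -0.93 with isotype (adjusted p = 0.0127), and neither co-culture overlapped MC38 alone. mt-Co1, the heme-bearing catalytic subunit, had 9.16, 8.73 and 8.45 with anti-PD1 and 8.61, 8.09 and 8.66 with isotype, against 8.35, 7.97 and 8.63 in MC38 alone. The groups overlapped, with a log2 fold change of 0.46 with anti-PD1 (95% interval -0.04 to 0.97, adjusted p = 0.198) and 0.13 with isotype (95% interval -0.37 to 0.64, adjusted p = 0.742).

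The ATP synthase members share 1 transcript, in which the reading frames of mt-Atp8 and mt-Atp6 overlap by 43 bases. mt-Atp6, the proton channel subunit at the 3′ end of that transcript, had 10.11, 9.96 and 9.79 log2 CPM with anti-PD1 and 9.93, 9.28 and 9.86 with isotype, against 10.84, 10.69 and 10.92 in MC38 alone. It fell in both co-cultures, with a log2 fold change of -0.86 with anti-PD1 (SE 0.17, adjusted p = 0.00721) and -1.12 with isotype (SE 0.17, adjusted p = 0.00162). mt-Atp8, the small stalk subunit upstream, had 5.78, 5.78 and 6.08 with anti-PD1 and 5.91, 5.72 and 5.94 with isotype, against 5.91, 5.93 and 6.65 in MC38 alone. Its log2 fold changes of -0.29 with anti-PD1 (adjusted p = 0.359) and -0.31 with isotype (adjusted p = 0.33) did not pass.

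Both rRNAs, which form the core of the mitochondrial ribosome, fell with isotype, and mt-Rnr1 also fell with anti-PD1. mt-Rnr1, the small-subunit rRNA, had 10.66, 10.37 and 10.59 log2 CPM with anti-PD1 and 10.46, 10.61 and 10.54 with isotype, against 11.01, 11.17 and 11.27 in MC38 alone. Its log2 fold change was -0.61 with anti-PD1 (adjusted p = 0.00599) and -0.61 with isotype (adjusted p = 0.00634), and the groups did not overlap. mt-Rnr2, the large-subunit rRNA, had 11.91, 11.62 and 11.50 with anti-PD1 and 11.37, 11.21 and 11.41 with isotype, against 11.95, 12.15 and 12.25 in MC38 alone. It fell with isotype (log2 fold change -0.79, SE 0.14, adjusted p = 0.00386). With anti-PD1 the log2 fold change was -0.44 (adjusted p = 0.055).

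Of the 15 tRNAs, 1 was lower with anti-PD1 and 2 with isotype. Of all genes, 7.71 percent were lower with anti-PD1 and 6.22 percent with isotype. Counts this small are no result about the tRNAs as a set. mt-Tm, the methionine tRNA that lies just before mt-Nd2, had 2.98, 2.78 and 2.86 log2 CPM with anti-PD1 and 2.64, 3.00 and 2.96 with isotype, against 3.74, 3.37 and 3.94 in MC38 alone. It fell by 0.82 on the log2 scale with anti-PD1 (adjusted p = 0.023) and by 0.82 with isotype (adjusted p = 0.0242). The anti-PD1 call was lost without any one anti-PD1 library (adjusted p from 0.0515 to 0.079) or the first library of MC38 alone (adjusted p = 0.0559). The isotype call was lost without that library or the first or the third isotype library (adjusted p from 0.0601 to 0.101). mt-Tg, the glycine tRNA that starts at the base after mt-Co3, had 2.33, 2.35 and 1.79 with anti-PD1 and 1.60, 1.45 and 1.40 with isotype, against 3.32, 3.09 and 2.19 in MC38 alone. It fell with isotype (log2 fold change -1.38, adjusted p = 0.0175), and with anti-PD1, where the groups overlapped, the log2 fold change was -0.71 (adjusted p = 0.165). The isotype call was lost without the first or the second library of MC38 alone or the second or the third isotype library (adjusted p from 0.0543 to 0.0641). The other tRNAs did not pass and had both signs. mt-Te, the glutamate tRNA, had a log2 fold change of 0.53 with anti-PD1 (adjusted p = 0.518) and 1.02 with isotype (adjusted p = 0.212). mt-Tq, the glutamine tRNA, had a log2 fold change of -0.13 with anti-PD1 and 0.06 with isotype, and mt-Ti, the isoleucine tRNA, of 0.11 with anti-PD1 and -0.10 with isotype. Mature tRNAs end in CCA and carry no poly(A) tail, and which RNAs this kit reads at tRNA genes was not tested.

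**Figure D2:**
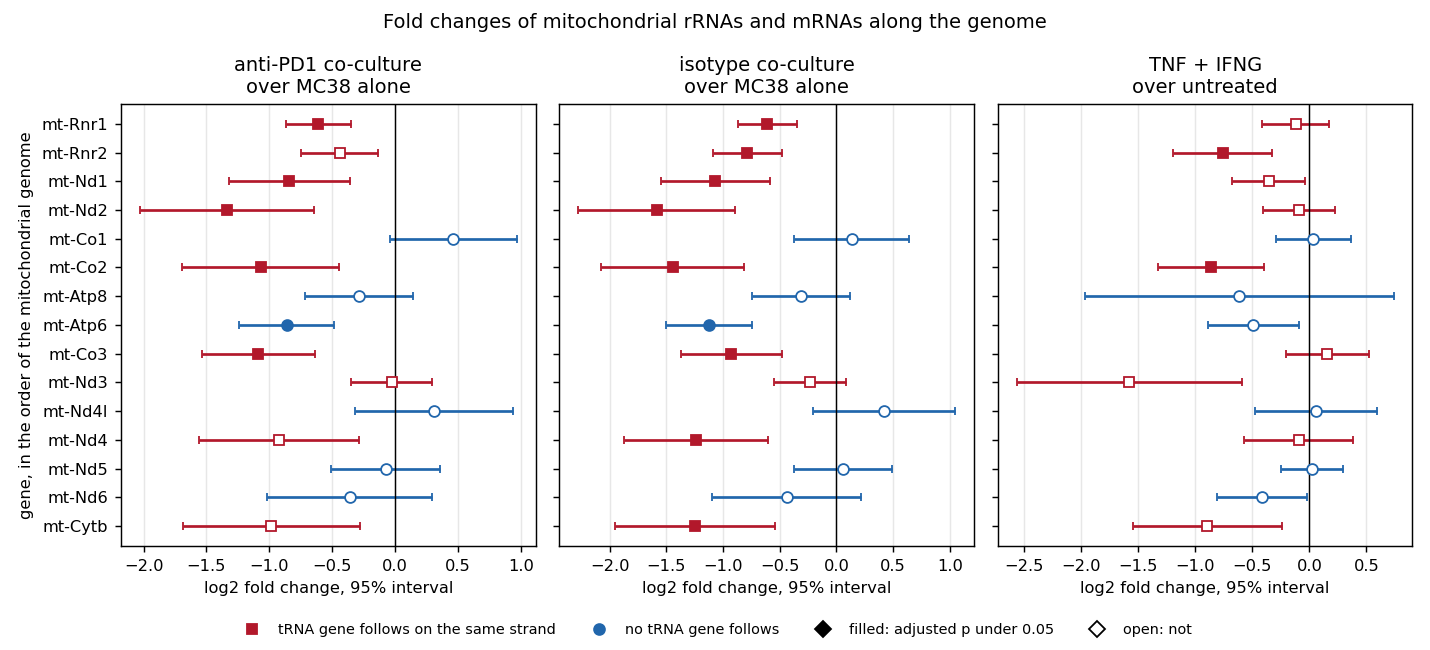
Log2 fold changes with 95% intervals of the 2 rRNAs and 13 mRNAs, from the top in genome order, for anti-PD1 co-culture over MC38 alone, isotype co-culture over MC38 alone, and TNF with IFNG over untreated. Red squares mark genes with a tRNA gene within 3 bases of their 3′ end on the same strand, blue circles the other 6, and filled symbols passed an adjusted p of 0.05, which 8 of 9 red and 1 of 6 blue symbols do with isotype. With anti-PD1, 5 of 9 red and 1 of 6 blue symbols do so. With TNF and IFNG together, 2 of 9 red and 0 of 6 blue symbols do so.

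With isotype, what lies downstream divides these genes with few exceptions, and their level divides them too. With anti-PD1 both divisions hold for fewer genes. Both divisions were made after the values were seen, so they are descriptions without a test. The mRNAs and rRNAs lower with isotype had means of at least 9.70 log2 CPM in MC38 alone (mt-Nd1), the others at most 8.32 (mt-Co1). Position and level go together here, and the part of each was not tested. In 9 of the 15 mRNA and rRNA genes a tRNA gene follows within 3 bases on the same strand. With anti-PD1, 5 of these 9 were lower, with a median log2 fold change of -0.92, and with isotype 8 of 9 were lower, with a median of -1.07. All 9 had negative fold changes in both comparisons, and of the 9 only mt-Nd3 passed in neither. Of the other 6 genes only mt-Atp6 was lower, and their median log2 fold changes were -0.18 with anti-PD1 and -0.12 with isotype. These 6 end in other ways. mt-Co1 is 69 bases from the next tRNA gene on its strand, with mt-Ts1 on the opposite strand between them. mt-Nd5 is 579 bases from mt-Cytb, and mt-Atp8 and mt-Nd4l run into the next reading frame. mt-Atp6 runs into mt-Co3, and mt-Nd6 has no gene close by downstream on its strand.

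No difference between the antibodies was detectable for any member. Between anti-PD1 and isotype co-cultures limma called 0 of 30 members and 0 percent of all genes, and at an unadjusted p under 0.05 it found 1 member and 347 genes of 12707. That member was mt-Rnr2, with a log2 fold change of 0.35 (95% interval 0.04 to 0.65). mt-Cytb, mt-Nd4, mt-Rnr2 and mt-Tg were lower with isotype alone, and since their direct difference did not pass, they are not shown to differ between the antibodies. The intervals are wide for some: mt-Co2 differed by 0.37 (95% interval -0.25 to 1.00) and mt-Nd2 by 0.25 (95% interval -0.45 to 0.94).

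The members together made up 1.27, 0.994 and 0.900 percent of library CPM in the anti-PD1 co-cultures and 0.975, 0.768 and 0.964 percent in the isotype co-cultures, against 1.63, 1.58 and 1.90 percent in MC38 alone. The mean was 1.06 ± 0.193 percent with anti-PD1 and 0.902 ± 0.116 percent with isotype, against 1.70 ± 0.168 percent in MC38 alone (SD, n = 3 each), and no co-culture library reached the lowest library of MC38 alone. The mRNAs accounted on average for 0.562 percent with anti-PD1 and 0.480 percent with isotype, against 1.01 percent in MC38 alone. The rRNAs accounted for 0.482 percent with anti-PD1 and 0.410 percent with isotype, against 0.677 percent in MC38 alone. The tRNAs were a small part, at 0.0112 percent with anti-PD1 and 0.0123 percent with isotype, against 0.0125 percent in MC38 alone. T cell RNA was present in every co-culture and in the third library of MC38 alone. That library had the highest share of all, 1.90 percent, with a T cell marker sum of 43.5 CPM. The part of T cell RNA in these shares was not tested. The shares are sums of normalized values, which follow the place of each gene in its library, and are not shares of reads. Libraries within a group differed too. The second isotype library, whose description says OT2, was the lowest of all 9 libraries for 8 of 13 mRNAs and the highest for 6 of 15 tRNAs.

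**Figure D3:**
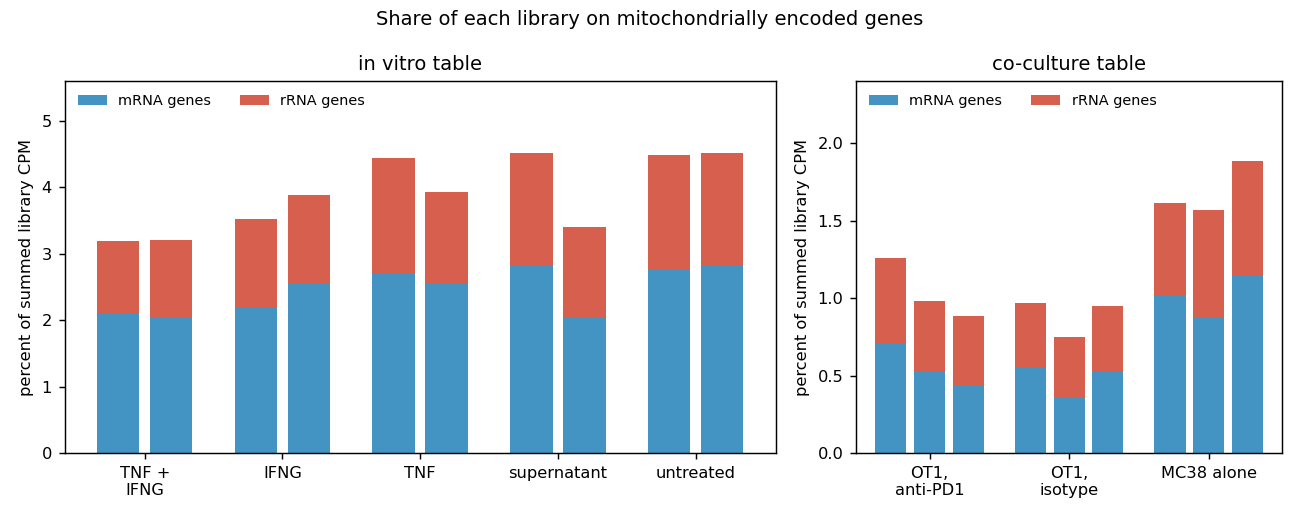
Percent of summed library CPM on mitochondrial mRNA genes (blue) and rRNA genes (red), 1 stacked bar per library, in the co-culture table and the in vitro table, which were normalized separately. With tRNAs added, the co-cultures reach at most 1.27 percent against at least 1.58 percent in MC38 alone, and TNF with IFNG has 3.22 and 3.23 percent against 4.51 and 4.55 percent in untreated cells. The percentages sum normalized values and are not shares of reads.

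Some of the nuclear-encoded partners of these subunits were also lower in co-culture. Of 77 nuclear subunits of complexes I to V, 19 were lower with anti-PD1 and 18 with isotype, and none was higher. Of all genes tested, 7.71 percent were lower with anti-PD1 and 6.22 percent with isotype, while 8.42 percent were higher with anti-PD1 and 7.64 percent with isotype. The median log2 fold change of the 77 was -0.23 with anti-PD1 and -0.22 with isotype. In complex I, 8 of 36 were lower with anti-PD1 and 6 with isotype. None of 4 passed in complex II, which has no mitochondrially encoded subunit. In complex III, 3 of 9 were lower with anti-PD1 and 4 with isotype, and in both comparisons 4 of 12 were lower in complex IV and 4 of 16 in complex V. In an alternative chosen after seeing the data, without the third library of MC38 alone, 18 of the 77 were lower and 1 higher with anti-PD1, where 9.93 percent of all genes were lower, and 20 were lower with isotype, where 8.19 percent of all genes were lower. Ndufs4, an accessory subunit of complex I, fell by 0.82 on the log2 scale with anti-PD1 and by 0.89 with isotype. Uqcrh, the hinge protein of complex III, fell by 0.72 with anti-PD1 and 0.49 with isotype. Cox7a2 of complex IV fell by 0.84 with anti-PD1 and 0.71 with isotype. Atp5e, the epsilon subunit of the ATP synthase, fell by 0.76 with anti-PD1 and 0.69 with isotype. When every library was centred on the median of these 77 nuclear subunits, 3 members stayed lower and mt-Co1 was higher with anti-PD1 (log2 fold change 0.67, adjusted p = 0.0487). With isotype all 11 members called lower were also called lower after this centring.

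Genes that make and handle mitochondrial RNA mostly stayed under the threshold. Polrmt, the mitochondrial RNA polymerase, had a log2 fold change of 0.43 with anti-PD1 and 0.47 with isotype. Tfam, which packages and activates mitochondrial DNA, had 0.16 with anti-PD1 and -0.05 with isotype, and Lrpprc, which stabilizes mitochondrial mRNAs, had -0.27 with each. Mtpap, the mitochondrial poly(A) polymerase, had a log2 fold change of -0.28 with anti-PD1 and -0.74 with isotype, and Pnpt1, an RNA-degrading exonuclease, had 0.20 with anti-PD1 and 0.12 with isotype. None of these 5 genes passed. Of 21 genes for transcription and maintenance of mitochondrial DNA, Dguok, a deoxyguanosine kinase that supplies its building blocks, fell by 0.55 on the log2 scale with anti-PD1 and 0.68 with isotype, and Ssbp1, the single-strand binding protein, fell by 0.48 with isotype, a call that was lost without the third library of MC38 alone. Of 39 genes for RNA processing, polyadenylation and decay, Mrm3, which methylates the large rRNA, rose by 0.73 with anti-PD1 and 0.65 with isotype. Of 12 translation factors Tsfm, an elongation factor, rose with anti-PD1 (log2 fold change 0.62), and limma called 0 with isotype, with 1 at an unadjusted p under 0.05. Of 81 mitochondrial ribosomal proteins 8 were lower and 1 higher in each comparison. The 8 lower are 9.88 percent of the list, near the share of all genes, so the count is no result about the list. Mrpl42 among them fell by 0.63 with anti-PD1 and 0.56 with isotype. Without the third library of MC38 alone, 7 of the 81 were lower with anti-PD1 and 8 with isotype.

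Of 7 regulators that drive nuclear genes for mitochondria, 2 were lower in both comparisons. Ppargc1a, the coactivator PGC-1 alpha, had -2.66, -2.36 and -1.03 log2 CPM with anti-PD1 and -0.34, -2.30 and -2.66 with isotype, against 1.64, 1.71 and 1.21 in MC38 alone. The groups did not overlap, but 4 of the 6 co-culture values are among the lowest 3 values of their library, so the fitted log2 fold changes of -3.53 with anti-PD1 and -3.29 with isotype rest on values at the bottom of the scale. Without the third library of MC38 alone it missed the filter on low values and was not tested. Ppargc1b, its relative PGC-1 beta, had 1.43, 0.97 and 0.67 with anti-PD1 and 1.65, 0.90 and 0.78 with isotype, against 2.51, 2.44 and 2.49 in MC38 alone. It fell by 1.45 on the log2 scale with anti-PD1 (adjusted p = 0.0147) and by 1.37 with isotype (adjusted p = 0.0211). Gabpb1, a subunit of the transcription factor GABP, was higher with anti-PD1 (log2 fold change 1.09), and Pprc1, a related coactivator, was higher with isotype (log2 fold change 0.69).

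In vitro, 6 hours of TNF with IFNG lowered 3 of 31 members relative to untreated cells, mt-Co2, mt-Rnr2 and mt-Ti, and raised none, where 4.25 percent of all genes were lower. At an unadjusted p under 0.05, 8 members were lower, as were 1937 of all 12720 genes. The median log2 fold change was -0.12 over the members, -0.36 over the 13 mRNAs and 0.02 over all genes. For the alternative fits that follow, shares of all genes are not set beside the counts. Those counts are therefore no result about the members. The 3 calls depend on which libraries enter the fit: none passed when only the 2 compared groups were fitted, and 6 members (mt-Atp8, mt-Co2, mt-Cytb, mt-Nd3, mt-Rnr2 and mt-Ti) passed when either supernatant library was left out of the fit. Leaving out either library of the untreated, TNF or IFNG group, or the second library with both cytokines, left 0, and leaving out the first library with both cytokines left 1.

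mt-Co2 had 10.82 and 10.67 log2 CPM with TNF and IFNG together, 10.93 and 11.42 with IFNG and 11.59 and 11.39 with TNF, against 11.50 and 11.71 in untreated cells. The libraries with both cytokines were the 2 lowest of these, and the log2 fold change was -0.86 (SE 0.20, adjusted p = 0.0395). mt-Ti had 4.90 and 4.36 with both, 5.61 and 5.23 with IFNG and 5.47 and 5.25 with TNF, against 5.62 and 6.01 in untreated cells. It fell by 1.19 on the log2 scale (SE 0.28, adjusted p = 0.0401), below the other groups in both libraries. mt-Rnr2 had 12.87 and 12.97 with both, 13.28 and 13.28 with IFNG and 13.68 and 13.28 with TNF, against 13.68 and 13.68 in untreated cells, a log2 fold change of -0.76 (SE 0.19, adjusted p = 0.0448). All libraries of the table hold nearly the same set of high values, so a gene near the top of a library can take only the value of its place in the list. mt-Rnr2 was between place 2 and place 5 in all 10 libraries, and the step between place 2 and place 3 is 0.41 on the log2 scale.

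**Figure D4:**
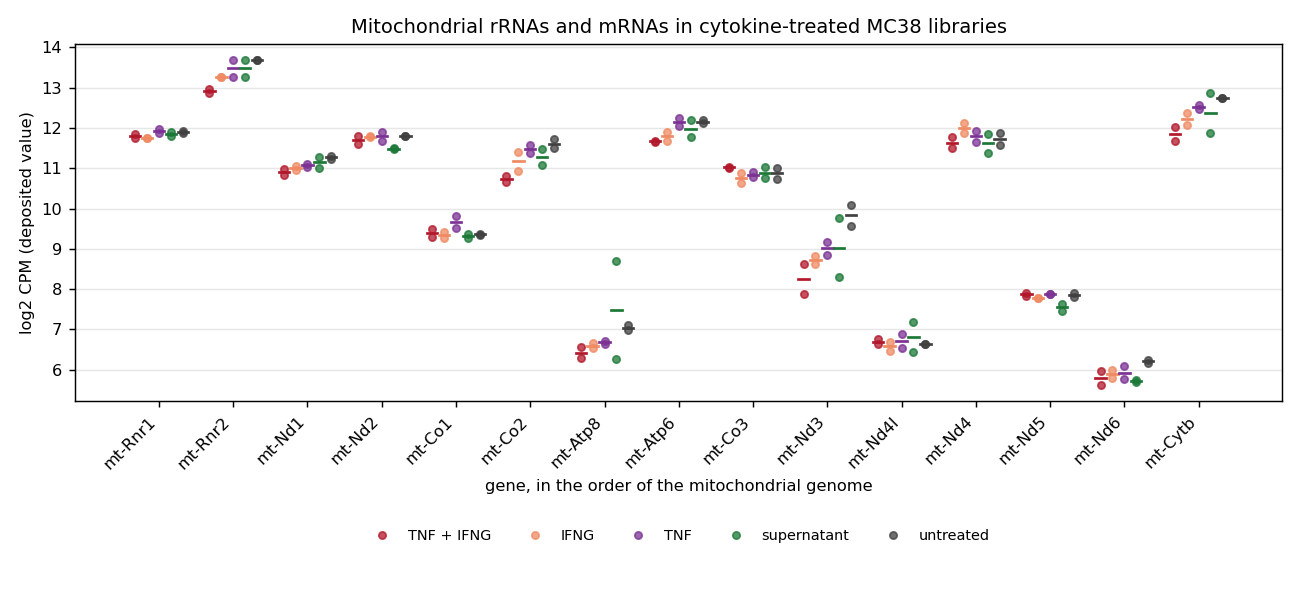
Deposited log2 CPM of the 2 mitochondrial rRNAs and 13 mRNAs in genome order in the in vitro table, with 1 point for each of 2 libraries per group (TNF with IFNG, IFNG, TNF, supernatant, untreated) and a bar at the group mean. The libraries with both cytokines are below the untreated ones for mt-Rnr2, mt-Co2, mt-Nd3 and mt-Cytb, and 1 supernatant library stands high for mt-Atp8.

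Among members that did not pass, mt-Nd3 had 7.89 and 8.63 log2 CPM with both cytokines, against 9.57 and 10.10 in untreated cells, a log2 fold change of -1.58 (adjusted p = 0.0553). mt-Cytb had 11.67 and 12.02 with both cytokines, against 12.74 and 12.74 in untreated cells, a log2 fold change of -0.90 (adjusted p = 0.0798). mt-Atp6 had 11.69 and 11.64, against 12.19 and 12.13 in untreated cells (log2 fold change -0.49, adjusted p = 0.101). In all 3 the groups did not overlap. Several genes that were lower in co-culture did not pass here. mt-Nd2 had 11.81 and 11.60 with both cytokines against 11.80 and 11.80 in untreated cells, mt-Co3 had 11.04 and 11.02 against 10.73 and 11.01, and mt-Nd4 had 11.77 and 11.50 against 11.87 and 11.59. mt-Co1 had 9.49 and 9.29 against 9.35 and 9.36, and mt-Nd5 had 7.90 and 7.84 against 7.90 and 7.79. The tables were normalized separately and no difference between the 2 experiments was tested. All libraries with both cytokines were below both untreated ones for 13 of 31 members and above them for 2, where 28.5 and 30.5 percent of all genes did so.

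Each cytokine alone, the supernatant and the direct comparisons gave no call among the members. With IFNG limma called 0 of 31 (0.354 percent of all genes in either direction) and 1 was lower at an unadjusted p under 0.05, mt-Nd3 (log2 fold change -1.11, adjusted p = 0.449). TNF gave 0 of 31 (0.275 percent of all genes), with 1 lower at an unadjusted p under 0.05, mt-Tg (log2 fold change -0.67). The supernatant gave 0 of 31 (0.448 percent of all genes), with 3 lower at an unadjusted p under 0.05, mt-Tm, mt-Nd6 and mt-Nd5. Of all 12720 genes, 715 were lower at that unadjusted level with IFNG, 297 with TNF and 209 with supernatant. mt-Tm was at 4.25 and 4.11 log2 CPM with supernatant, against 5.02 and 5.03 in untreated cells (log2 fold change -0.85, adjusted p = 0.15).

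TNF with IFNG against IFNG gave 0 of 31 (0.236 percent of all genes), with mt-Ti at an unadjusted p under 0.05. Against TNF it gave 0 of 31 (0.417 percent of all genes), with 5 at that level, mt-Atp6, mt-Co2, mt-Cytb, mt-Rnr2 and mt-Ti, all lower. Of all 12720 genes, 888 were lower at that level against IFNG and 1065 against TNF. The interaction of TNF and IFNG, which asks whether the pair differs from the sum of the log2 effects of each, gave 0 of 31 (0.0157 percent of all genes) and 0 at an unadjusted p under 0.05. The fall of mt-Co2, mt-Rnr2 and mt-Ti with both cytokines is therefore not shown to exceed the sum of the effects of each alone.

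The members' share of library CPM was 3.22 and 3.23 percent with TNF and IFNG together, 3.56 and 3.91 percent with IFNG, 4.46 and 3.94 percent with TNF and 4.54 and 3.42 percent with supernatant, against 4.51 and 4.55 percent in untreated cells. The libraries with both cytokines were the lowest and the untreated ones lay close together. As in co-culture, these shares sum normalized values that follow places in the list and are not shares of reads. The supernatant libraries spanned most of the range between these. They differed most at mt-Atp8, with 8.69 log2 CPM in the first library and 6.27 in the second, against 6.98 and 7.10 in untreated cells, while mt-Atp6 on the same transcript had 12.19 and 11.77. The median absolute difference between the 2 libraries of a group over the 13 mRNAs was 0.395 for supernatant, 0.196 for both cytokines, 0.203 for IFNG, 0.205 for TNF and 0.0789 for untreated cells. In untreated cells mt-Cytb and mt-Nd2 differed by exactly 0. Genes near the top of a library take the value of their place, so these spreads are partly set by normalization.

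At the tRNA genes 1 library stood apart in vitro. In the second TNF library, mt-Te was at -1.11 log2 CPM against 3.38 in the first, mt-Tn, the asparagine tRNA, at -1.11 against 2.53, mt-Ta, the alanine tRNA, at 0.01 against 2.65, and mt-Tq at 3.83 against 6.05. These genes were picked after their values were seen. All 6 tRNA genes on the minus strand were lower in the second TNF library than in the first, by a median of 2.43 on the log2 scale, and the gap was smallest at mt-Tp, the proline tRNA, with 4.84 against 5.03. On the plus strand 6 of 10 were lower, with a median difference of -0.30, and mt-Th was also at -1.11, against 0.81 in the first. The third lowest value of the second TNF library was -1.57, so gaps that end at -1.11 rest on values near the bottom of the scale. Between the IFNG libraries all 6 minus-strand genes were also lower in the second, by less, with a median difference of -0.73. There 8 of 10 plus-strand tRNA genes were lower too, with a median difference of -0.48. Of the 6 minus-strand genes, the second library was lower for 3 with both cytokines, 2 in untreated cells and 0 with supernatant. mt-Nd6, the mRNA on the minus strand, differed by -0.32 between the TNF libraries. The summed level of the minus-strand tRNA genes was 45.6 CPM in the second TNF library and 82.5 to 149 CPM in the other 9. The sum for the plus-strand tRNA genes there, 101 CPM, lay within the 92.8 to 154 CPM of the others. The mRNAs of that library did not stand apart in the same way, with 11 of 13 lower than in the first TNF library by a median of 0.13.

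**Figure D5:**
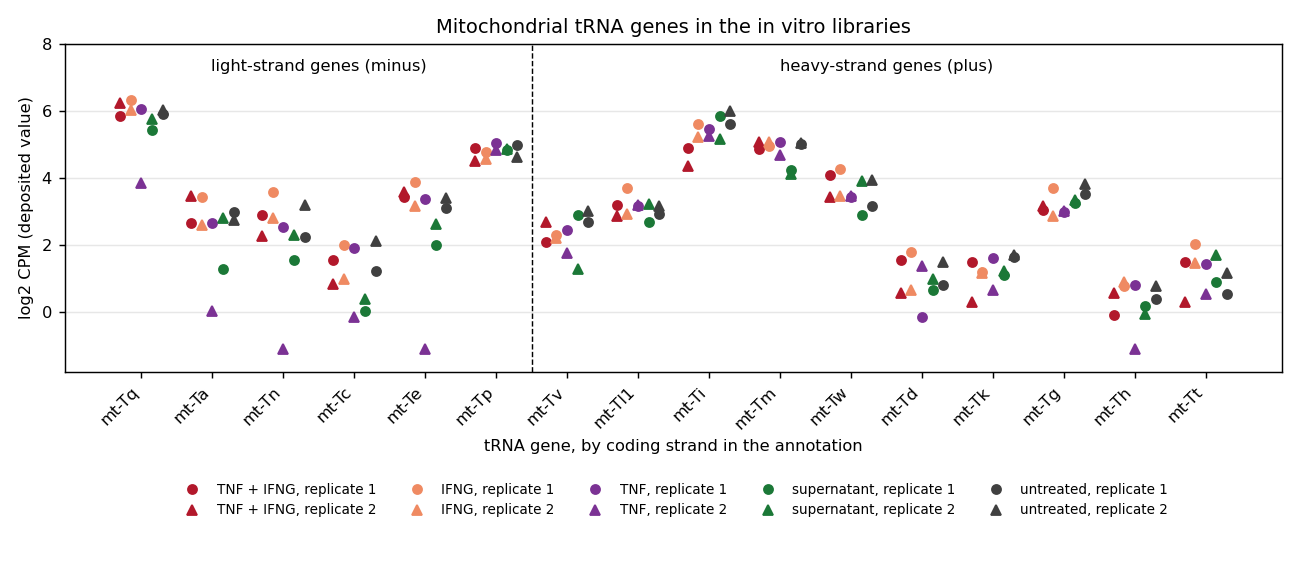
Deposited log2 CPM of the 16 tRNA genes in the in vitro table, minus-strand genes left and plus-strand genes right, with circles for replicate 1 and triangles for replicate 2 of TNF with IFNG, IFNG, TNF, supernatant and untreated. The purple triangles of the second TNF library fall to -1.11 at mt-Te and mt-Tn on the minus strand and at mt-Th on the plus strand.

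With TNF and IFNG together, 4.77 percent of all genes tested were higher and 4.25 percent lower than in untreated cells, and no nuclear list had more than 6 genes called in 1 direction. Of the 77 respiratory subunits 6 were higher and 1 lower, with a median log2 fold change of -0.12. Ndufa5 and Ndufa13 of complex I were higher (log2 fold changes 0.86 and 0.65), as were Sdhb, the iron-sulfur subunit of complex II, and Atp5k of the ATP synthase (0.57 and 0.77), while Atp5g3, which encodes a rotor ring subunit, was lower (-0.83). Of 81 mitochondrial ribosomal proteins 4 were higher and 2 lower. Of 39 RNA processing genes Nsun4, which acts in ribosome assembly, and Tbrg4 were higher (log2 fold changes 0.91 and 0.76) and Fastkd1 was lower (-1.23). Of 12 translation factors Tsfm was lower (-1.45), and of 7 regulators Esrra, a nuclear receptor that works with PGC-1 coactivators, was lower (-1.74). In limma 0 of the 21 transcription and maintenance genes passed, with 2 at an unadjusted p under 0.05. Polrmt had a log2 fold change of 0.56, Tfam of -0.52, Lrpprc of 0.31, Mtpap of -0.27 and Pnpt1 of -0.93 (adjusted p = 0.0666), and none of these 5 passed.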

How the data were processed

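Total RNA of 19 MC38 libraries was extracted with a NucleoSpin kit and sequenced from mRNA 3′ ends with the QuantSeq kit, per the labels' protocols. The submitters' processing notes list HISAT2 and featureCounts (Subread) beside cutadapt 1.7, FastQC and limma, in no stated order, with GRCm38 and mm10 as builds. The authors deposited log2 CPM values in 2 tables, and the values have the form of quantile normalization within each table: the highest value is shared by all libraries of a table (16.06 in vitro, 16.58 in co-culture). Raw counts and depth were not used here, the sources used here do not give the strand setting of the counting or its handling of reads that also match nuclear copies of mitochondrial DNA, and no intervals for counting error can be given.

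Genes at log2 CPM of 0 or more in at least as many libraries as the smallest group holds were tested (12720 in vitro, 12707 in co-culture, all members among them). limma 3.58.1 in R 4.3.3 fitted all groups of a table together with a mean-variance trend, 2-sided, with Benjamini-Hochberg adjustment over all genes tested and a threshold of 0.05. Intervals are 95% intervals of the fit. The procedure was tested on simulated data. Member genes are all names that start with mt-; every mRNA and rRNA is named, tRNAs that passed or were among the 3 highest, and of each nuclear list up to 3 genes of smallest p, besides 5 fixed ones. The tRNAs mt-Te, mt-Tn, mt-Ta, mt-Tq, mt-Tp and mt-Th, where described for single libraries, and mt-Te in co-culture, were named after their values were seen. Members and lists were chosen with earlier results of these data known. Sequences and positions are from GENCODE M21.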

Additional observations from a re-analysis of the deposited data

How the results depend on the processing

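The deposited log2 values carry no counts, so what depth limits cannot be computed. For TNF with IFNG against untreated (3 members), 0 passed in a fit of the 2 compared groups by themselves, 0 with weighted libraries, 0 without the mean-variance trend, 0 when centred on nuclear respiratory subunits, and 1 (mt-Ti) with the replicate number as a block. Leaving out 1 library at a time gave 0 to 6. For IFNG, 1 passed (mt-Nd3) in a fit of its 2 groups by themselves. For TNF, and for TNF with IFNG against TNF, leaving out 1 library gave 0 to 2. For supernatant it gave 0 to 1 (mt-Atp8, higher without the second supernatant library). Where 1 library stands for its group, it is assumed to vary like the other groups. For isotype co-culture (11 members) it gave 7 to 11, lowest without the third isotype library. For anti-PD1 co-culture (7 members), centring on nuclear respiratory subunits gave 4, 3 of them lower. Leaving out 1 library gave 3 to 9: 3 without the second or the third anti-PD1 library, the third being the one with conflicting labels, and 9 without the first. Shares of all genes are not set beside the counts of these alternatives. mt-Atp6, mt-Co2, mt-Co3, mt-Nd1, mt-Nd2, mt-Rnr1 and mt-Rnr2 with isotype, and mt-Atp6 and mt-Co3 with anti-PD1, passed under all 17 alternatives run. No fold change of a called member reversed. The cause of these differences was not tested. With group means taken off, same-numbered libraries of different groups correlated at -0.29 to 0.09 in vitro and -0.05 to 0.11 in co-culture. In vitro 0 of 10 and in co-culture 4 of 9 correlated best with their own number, so the numbers show no pairing of the libraries. With 2 libraries in a group the deviations mirror each other, so the 10 in vitro outcomes are not independent. The block gave 12 calls with isotype and 8 with anti-PD1.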
